A study of Caenorhabditis elegans with 2 samples.

Results

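The srh genes are a family of chemoreceptor genes of the nematode Caenorhabditis elegans. They were taken from the Ensembl annotation of the genome assembly WBcel235 (ce11 coordinates) as the protein-coding genes whose symbol starts with srh-. There were 220 of them among 19973 protein-coding genes on the nuclear chromosomes. Binding of EFL-1, an E2F-family transcription factor, to these genes was mapped by ChIP-seq, in which DNA bound by a protein is pulled down with an antibody and sequenced. All libraries belong to 1 group, with 2 biological replicates that the labels number 2 and 3, made from whole first-stage (L1) larvae of both sexes. The worms were of strain YL418, which carries the unc-119(ed3) mutation and the integrated transgene vrIs65. By its label the transgene expresses EFL-1 fused to GFP and FLAG from the ges-1 promoter, ends in the 3'UTR of efl-1 and carries unc-119(+) as a rescue marker. Activity of the ges-1 promoter is best known from the intestine, whereas srh genes act in neurons. Where the tagged protein was present was not measured, and no expression data were analysed here, so no tissue could be checked by its markers. The antibody is labelled efl-1, and the description says that the pull-down was against eGFP-efl-1. No control library was analysed here, so the family is set beside all protein-coding genes.

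Each srh gene encodes a predicted G protein-coupled receptor. Such receptors sit in the sensory cilia of chemosensory neurons, where a bound odorant or pheromone acts through G proteins on ion channels. Most srh receptors have no known ligand, and the genes lie in large clusters that grew by tandem duplication. E2F factors, with their DP partner, are best known at promoters of genes for DNA replication and cell division.

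EFL-1 was found at the promoters of 2 srh genes, srh-16 and srh-2. Promoter windows began 1000 bp before and ended 500 bp after each annotated transcript start (5' end), and a gene was called bound if the summit of a peak lay in its window. The peaks are the 1886 that the authors kept by IDR, the irreproducible discovery rate, which ranks peaks by how well the replicates repeat them. The 2 bound genes are 0.909% of the family (95% Clopper-Pearson interval 0.110 to 3.25%), and 11.0% of all protein-coding genes were bound. No other member had such a summit. The bound members were picked by these calls, so their values are a description and carry no test. The interval covers counting of genes only, and neighbouring srh genes are not independent of each other.

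The DNA at the summits of the bound genes is shown first, since everything called at the family rests on these places. The lines below run 5' to 3' along the strand of the gene, with the summit base in capitals (srh-16, chrV:12291790-12291819, plus strand; srh-2, chrV:731475-731504, plus strand, ce11).
srh-16: cgcgccagtgaccgCgctgcttgcgcactc
srh-2: agagagcacgcgagAcgaagagacgccggg
The 201 bp around the srh-16 summit held 37.8% G or C and those around the srh-2 summit 50.2%, beside a median of 39.8% over all IDR summits. Neither held the E2F consensus (TTTCCCGC, TTTCGCGC, TTTGCCGC or TTTGGCGC on either strand). TTTGAA, the core of the CHR element known from promoters bound by the DREAM complex, lay 38 bp from the srh-16 summit on the minus strand and was not in the srh-2 window. That site is shown with the motif in capitals (chrV:12291828-12291857, minus strand).
srh-16: cagttatatttaTTTGAAaaaccgcaaatt

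The srh-16 peak was among the strongest of the experiment. The peak of srh-16 (WBGene00005241, chromosome V, 12291680 to 12291953) had a signal, the authors' value in column 7 of their lists, of 1045 in the list called on both replicates pooled. The signal of srh-16 was 806 in replicate 2 and 244 in replicate 3, where it ranked 32 and 46 of 30000 regions. Relative to the median of each replicate over the IDR peaks it was 15.2 ± 3.47 (SD, n = 2). Both replicates therefore placed srh-16 near the top of their lists, and their summits were 5 bp and 0 bp from the pooled one. The summit lay between genes, 57 bp upstream of the 5' end of srh-16. Peak lists do not assign a signal to a gene, so the position alone does not show that the signal belongs to srh-16.

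The srh-2 peak was far weaker, and its summit was in the window of no other protein-coding gene. The peak of srh-2 (WBGene00005228, chromosome V, 731347 to 731630) had a pooled signal of 42.6 and ranked 1262 of the 1886 IDR peaks. The signal of srh-2 was 32.7 in replicate 2 and 9.88 in replicate 3, with ranks of 1202 and 1779. Scaled to each replicate's median it was 0.614 ± 0.141 (SD, n = 2), below the typical IDR peak in both. The summit lay 80 bp downstream of the nearest 5' end of srh-2, in the annotated 5' UTR of 3 of its 13 transcripts. The gene has 7 annotated 5' ends, and this one is an internal start, more than 3 kb from the first. The first 5' end faces icl-1, which encodes the glyoxylate cycle enzyme of isocitrate lyase and malate synthase activity, but the IDR summit did not lie there. At the first 5' end the list of the pooled replicates had regions of signal 9.35 and 7.30, both also in the window of icl-1, nearer to its 5' end and listed in replicate 2 only.

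**Figure D1:**
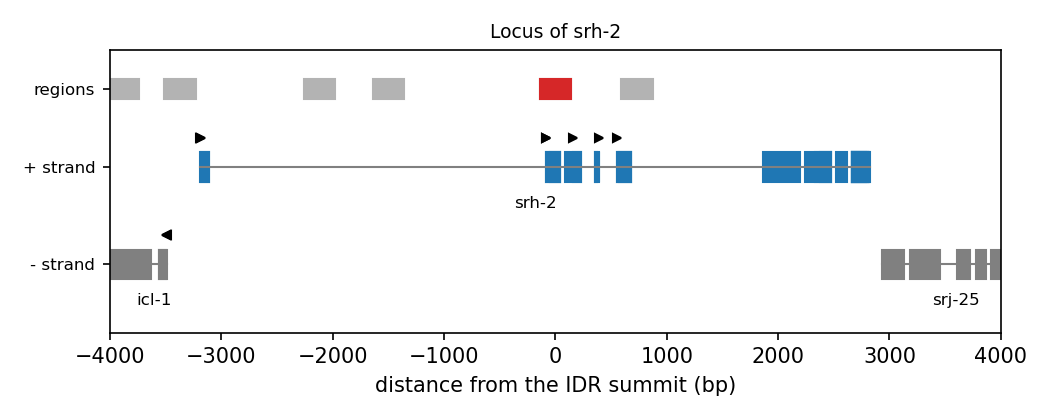
Map of the srh-2 locus in bp from the IDR summit. Exons are boxes (srh-2 in blue, others in grey), arrowheads are annotated 5' ends, the IDR peak is red and other regions of the pooled list are grey; the IDR peak covers internal 5' ends of srh-2, and its summit is 80 bp downstream of the nearest.

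Below the IDR threshold most srh promoters had no region at all, and those that had one mostly had a low signal, under 10 at 62 genes. That pooled list holds 30000 regions, background included, with signals from 5.72 upward. It had a summit at 72 srh promoters (32.7%, 26.6 to 39.4%), and 51.0% of all protein-coding genes had one. The remaining 148 srh genes had none. Outside the IDR set the strongest region at each of 70 srh genes had a signal from 5.78 to 21.0, with a median of 7.37. Over all 72 srh genes with a region, IDR-bound ones included, the median was 7.45. On the same terms it was 7.45 in other chemoreceptor families and 9.31 over all protein-coding genes. The median over all 30000 regions, each counted by itself, was 7.83. The 78 distinct regions at srh promoters amounted to 230.1 per Mb of window, those at all protein-coding promoters to 363.8 per Mb, and the whole list to 299.2 per Mb of genome. The density at srh promoters was thus below that of the genome as a whole.

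Summits at srh promoters were spread over the window. Of 80 pairs of an srh gene and a region, 26 had the summit close to the 5' end, at most 300 bp before it or 100 bp after it. The summit was upstream of the 5' end in 52 pairs and downstream in 28. The summit was also in the window of a protein-coding gene outside the family at 17 of the 78 regions, and 2 regions counted for 2 srh genes each. The nearest protein-coding 5' end belonged to an srh gene at 70 regions.

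**Figure D2:**
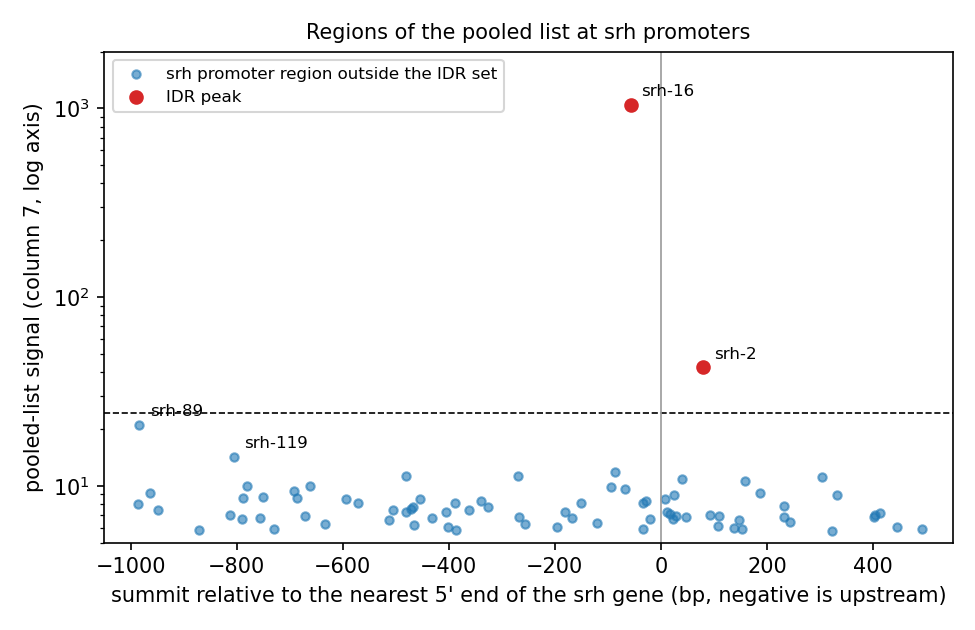
Each point is 1 of the 80 pairs of an srh gene and a pooled-list region, by the position of the summit relative to the 5' end (bp) and the pooled signal (column 7, log axis). The dashed line is the lowest IDR signal, 24.4; only srh-16 (1045) and srh-2 (42.6) lie above it.

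The strongest regions just outside the IDR set belonged to srh-89, srh-119, srh-217, srh-170 and srh-24. The threshold ran between srh-2 at 42.6 and srh-89 at 21.0, and the lowest IDR signal was 24.4. At srh-89 (WBGene00005310) the signal was 15.2 in replicate 2 and 9.22 in replicate 3, or 0.406 ± 0.104 of the median (SD, n = 2). The replicates placed srh-89 at similar ranks, 2094 and 2010, with summits shifted by 0 bp and -82 bp from the pooled one. The pooled summit was 984 bp upstream of srh-89 but 104 bp upstream of F25E5.1, a divergent gene. At srh-119 (WBGene00005338) the pooled signal was 14.3, replicate 2 listed no region there and replicate 3 gave 12.4, rank 1347. That region therefore rests on 1 library. It lay 806 bp upstream of srh-119. The nearest IDR summit to this 5' end, 6588 bp away, was in the windows of efl-1 and fbxa-90.

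The next regions had lower pooled signals. At srh-217 the pooled signal was 11.9, with 5.17 in replicate 2 and no region in replicate 3. Its summit was 86 bp upstream of srh-217 and 349 bp upstream of Y113G7B.28. At srh-170 the pooled signal was 11.3, with 6.15 in replicate 2 and 3.12 in replicate 3, and the summit was 269 bp upstream. At srh-24 the pooled signal was 11.3 as well, with 4.42 in replicate 2 and 5.10 in replicate 3. The summits of these replicate regions were shifted by 23 bp and -131 bp from the pooled one. The srh-24 summit fell in a coding exon of algn-13, which is known for a role in protein glycosylation, and was also in the window of R10D12.13. Of these 5 regions, 3 thus shared their summit with a gene outside the family, and 2 were listed by 1 replicate alone.

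Both replicates listed few of the srh regions. Of the 78 regions, 18 (23.1%) overlapped a region of each replicate list by at least 1 bp, 25 only replicate 2, 21 only replicate 3 and 14 neither. Over all protein-coding promoters 35.4% were in both lists. Among regions with a signal below 10, the share in both was 10 of 68 at srh promoters (14.7%) and 1223 of 7665 at all promoters. Regions of like signal were thus about as often in both lists at srh promoters as elsewhere. Between a signal of 10 and the IDR threshold, 6 of 8 srh regions were in both, beside 57.2% at all promoters. Taking as many of the strongest regions of each replicate alone as the IDR set holds, replicate 2 gave 2 srh genes (10.8% of all protein-coding genes) and replicate 3 gave 3 (10.4%). The third was srh-119.

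**Figure D3:**
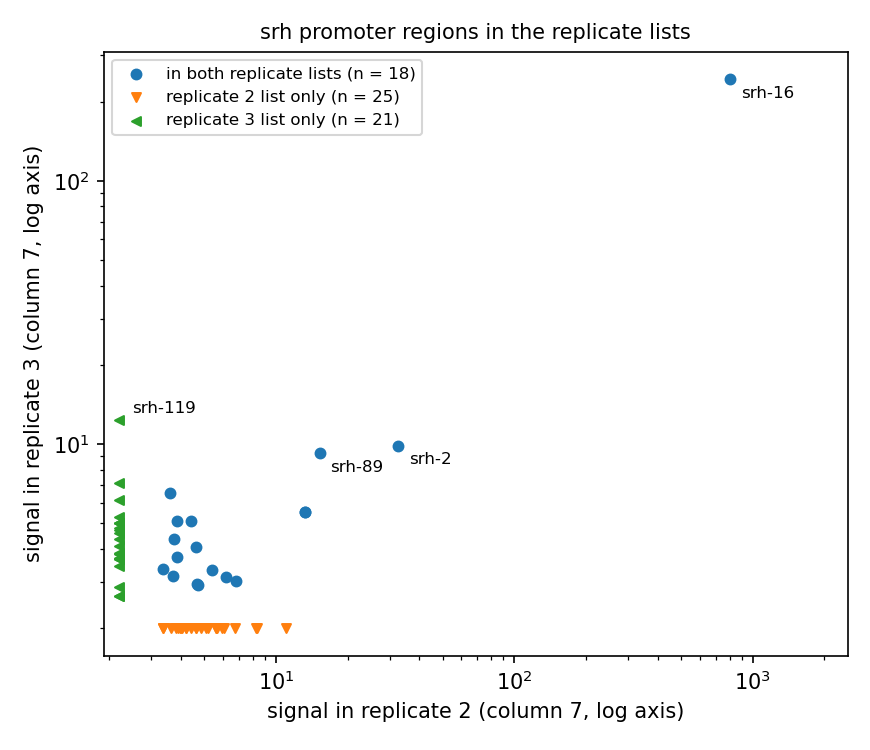
Signal of the srh promoter regions in replicate 2 and replicate 3 (column 7 of each list, log axes). Circles are the 18 regions in both lists, and triangles at the left and lower edges are the 21 and 25 regions listed in 1 replicate alone, drawn at the edge because they have no value in the other; only srh-16 stands far above the rest in both.

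The family stood below all protein-coding genes at each signal compared up to 500. From 50 to 1000 only srh-16 was left, and at 1000 the srh share was the higher one, 0.455% beside 0.265%. A promoter region of signal 10 or more was present at 10 srh genes (4.55%) and at 22.7% of all protein-coding genes. In other chemoreceptor families the share was 5.88%. The median distance from a 5' end to the nearest IDR summit was 52393 bp for srh genes and 19497 bp for all protein-coding genes. Within 5000 bp of an IDR summit lay 7 srh genes (3.18%) and 23.2% of all protein-coding genes. Besides srh-16 and srh-2 these were srh-24, srh-136, srh-40, srh-105 and srh-271, at distances of 1183 to 4943 bp. The nearest of these peaks was in the windows of algn-13 and R10D12.13, not of srh-24. The peak nearest to srh-40, 2485 bp away, had a signal of 487.8. It was in the windows of F20H11.4 and of mdh-2, which encodes a malate dehydrogenase.

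**Figure D4:**
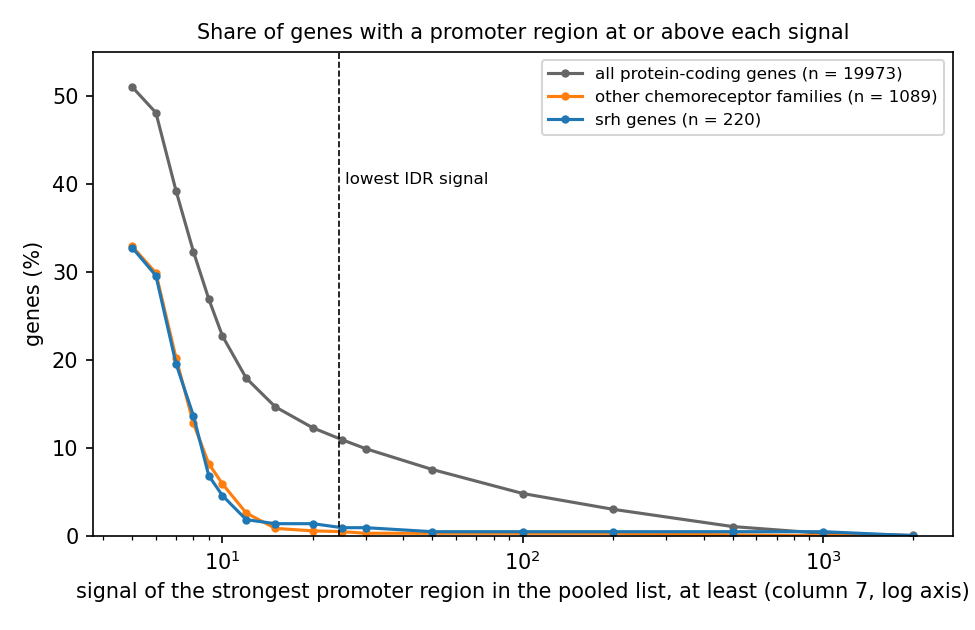
Share of genes (%) whose strongest promoter region in the pooled list has at least the signal on the x axis (column 7, log axis), for srh genes, other chemoreceptor families and all protein-coding genes. At a signal of 10 the shares are 4.55, 5.88 and 22.7%, and the dashed line is the lowest IDR signal, 24.4.

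Most srh genes lie on chromosome V, where EFL-1 peaks were also less frequent at other genes. Chromosome V holds 180 of the 220, chromosome II 27, IV 7, I 3, X 2 and III 1. On chromosome V 7.23% of all protein-coding genes were bound, and 8.67% of those outside the chemoreceptor families. In the right 25% of chromosome V, which holds 84 srh genes, none of them was bound, beside 4.51% of genes outside the chemoreceptor families. In the left 25% 1 of 50 was bound (srh-2), beside 6.78%. In the middle 50% 1 of 46 was bound (srh-16), beside 11.04%. Genes outside the chemoreceptor families within 10000 bp of an srh gene, a comparison chosen after the values were seen, were bound at 31 of 569 (5.45%). In each of these surroundings the share at srh genes was the lower one, and the differences were not tested. The part of the chromosomal surroundings in the low share was not tested.

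Head-to-head neighbours were rarer at srh genes than at other genes. An oppositely oriented 5' end within 1000 bp upstream was present at 27 srh genes (12.3%) and at 18.8% of all protein-coding genes. The partner was another chemoreceptor gene at 10 of these 27 and some other gene at 17. The pair of srh-2 and icl-1 was among the 17, although the srh-2 IDR summit was not in the shared stretch. Over all protein-coding genes 31.5% with a partner and 6.29% without one were bound.

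Duplicated genes can share sequence, and how reads that match several places were treated in peak calling is not stated. The share of 31-base words of the promoter window that occur once in the genome had a median of 98.8% for srh genes and 100% for all protein-coding genes. At 181 srh genes it was 90% or more. Of these, 2 were bound (1.10%), beside 11.9% of all protein-coding genes that met the same limit. The share at srh genes was also the lower one among windows with at least 90% unique words. The part of shared sequence in the low share was not tested. The windows of srh-16, srh-2 and srh-89 consisted wholly of unique words, while that of srh-170 held 65.9%. The symbols srh-57 and srh-228 each stand for 2 annotated genes, whose windows held 0% and 7.07% unique words and had no region.

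The E2F consensus was less frequent in srh promoters than in all promoters, while TTTGAA was about as frequent. In the 250 bp before and 50 bp after the most upstream 5' end, 4 srh promoters (1.82%) held the E2F consensus on either strand, beside 4.69% of all protein-coding promoters of the same length. They were srh-69, srh-147, srh-199 and srh-298, none of them bound. A region of the pooled list was present at srh-69, srh-147 and srh-298, and at 32.7% of the family. TTTGAA lay in 65.9% of srh promoters and 62.5% of all promoters, and TGATAA, the site of GATA factors, in 27.3% and 30.2%. The median G or C content was 33.7% and 34.3%. A match describes the letters only.

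Around the 78 summits at srh promoters the motifs were about as frequent as at the other regions of the pooled list. Within 100 bp of the summit TTTGAA lay at 38 (48.7%), the E2F consensus at 4 (5.13%) and TGATAA at 13 (16.7%). At all protein-coding promoters the shares were 47.3, 4.51 and 19.4%, and at the IDR summits 49.8, 12.4 and 10.5%. The 4 srh regions with the E2F consensus were at srh-127, srh-170, srh-269 and srh-19, with signals of 5.84, 11.3, 6.07 and 6.24. Within 250 bp of the summit the E2F consensus lay at 8 of the 78. The sites within 100 bp are shown with the motif in capitals (chrV:2892446-2892475 plus, chrV:15389205-15389234 plus, chrV:16592311-16592340 minus, chrX:1412834-1412863 plus).
srh-127: ttcagttcacaTTTGGCGCatcatttgcaa
srh-170: attcaaatattTTTCCCGCcttttttgaaa
srh-269: cattacaaacaTTTGCCGCcgctgtacacc
srh-19: gatttgtcaaaTTTGCCGCacattcctgat
The srh-170 site lies between the 2 TTTGAA of that summit, which are on opposite strands.

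Few genes of the other chemoreceptor families carried EFL-1 peaks. The 21 other families held 1089 genes, of which 5 were bound (0.459%, 0.149 to 1.07%). These were sri-5, srd-4, srr-10, sre-1 and srbc-58, 1 in each of 5 families, and 16 families had none. The str family, with 193 genes the next largest, had 0 (interval 0 to 1.89%). The difference between srh and the other families was not tested, and the intervals overlap. In the window of 300 bp before to 100 bp after the 5' end the other families had 0.0918% bound, and with each summit given to its nearest 5' end 0.184%, while srh stayed at 0.909% in both. The strongest of these peaks lay between divergent genes. The sri-5 peak (signal 661.1) was shared with rsr-1, the srd-4 peak (471.9) with usip-1 and the srr-10 peak (416.6) with clic-1, a clathrin light chain gene. In all 3 the summit lay upstream of both divergent 5' ends. The sre-1 peak (25.6) was 988 bp upstream of sre-1 and 6 bp upstream of B0495.9. The srbc-58 peak (25.2) was the only one of the 5 not shared with another gene. In the pooled list 32.9% of genes of the other families had a region, nearly the share of srh.

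**Figure D5:**
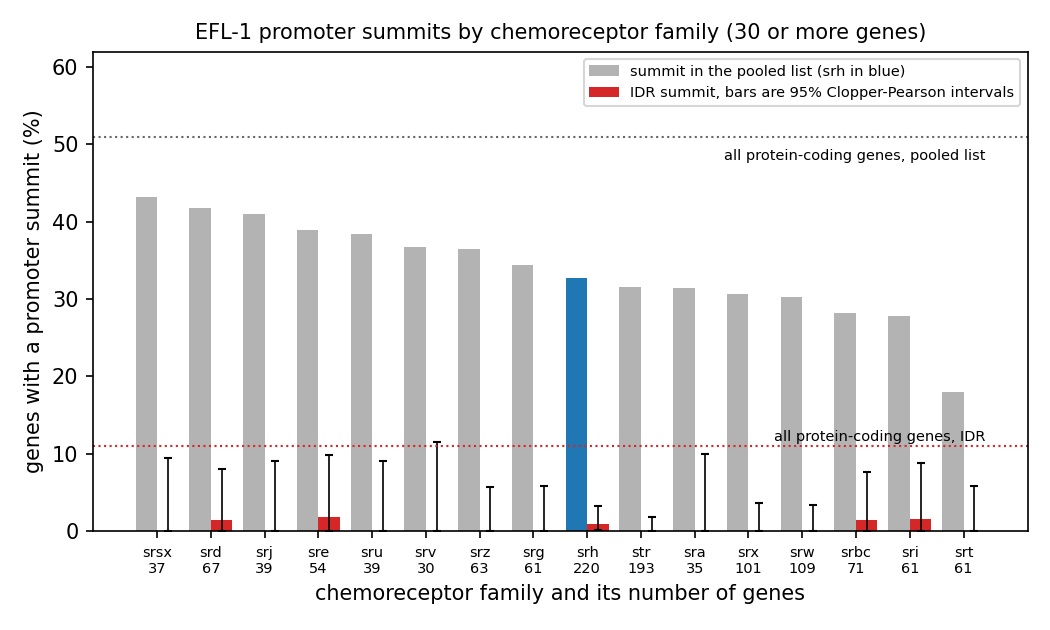
Share of genes with a promoter summit (%) in the 16 chemoreceptor families of 30 or more genes, srh included, in the pooled list (left bars, srh in blue) and in the IDR set (red bars, with 95% Clopper-Pearson intervals). The dotted lines are all protein-coding genes, 51.0% and 11.0%; the share of every family shown lies below both, although the IDR interval of srv reaches past the lower line.

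Few genes that act with chemoreceptors were bound, but the interval of their share includes the 11.0% of all protein-coding genes. Of 51 such genes 2 were bound (3.92%, 0.478 to 13.5%), both by weak unshared peaks. They were egl-4, the cGMP-dependent protein kinase of olfactory adaptation, with a signal of 29.8, and tir-1, an adaptor that acts in the asymmetric choice of chemoreceptor genes between the AWC neurons, with 28.0. None of 8 genes for receptor trafficking, 10 for G proteins and 10 for channels and guanylyl cyclases was bound. These groups are too small to tell their share from 11.0%. In the pooled list 30 of the 51 had a region, a share of 58.8% that is not below the 51.0% of all protein-coding genes.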

How the data were processed

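The deposited notes describe narrowPeak files on ce11, and further ones on ce10 that were not used here. Each replicate has a list of 30000 regions, a list of the same length comes from both replicates pooled, and the IDR set of 1886 peaks derives from these. Aligner and peak caller were not given in the sources used here. In every list, column 7 holds a signal per region as deposited by the authors, whose scale differs between libraries. The summit is an offset in the list, another deposited value. Read depth is unknown, as the lists hold no counts, so intervals cover counting of genes only. The labels call the samples biological replicates.

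With Ensembl release 115 on WBcel235, the build of the ce11 lists, summits were assigned to every protein-coding gene whose window held them (Python 3.11.15, pandas 2.3.3, scipy 1.17.1). Sequences are from the RefSeq genome of the same assembly. Functions were tested on simulated data. The members and lists were chosen with earlier results of these data known, and no test was run on them. Named genes are the bound members, genes sharing their summits, the 5 strongest unbound members, bound pathway genes, and the strongest bound gene of the 3 other families with most. Since 5 families tied with 1 gene each, all 5 are named. Other genes were named after their values were seen, and 1 gene that the rule names is not reported here. Alternatives are given at the end.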

Additional observations from a re-analysis of the deposited data

How the results depend on the processing

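The 2 bound srh genes stayed the count in a narrow window, 300 bp before to 100 bp after the 5' end (7.17% of all protein-coding genes), when peaks counted by any overlap with the window, and with each summit given to the nearest 5' end only (7.52%). Leaving out either replicate, the share ranged from 0.909 to 1.36%. The 943 strongest peaks kept srh-16 alone (0.455%), so 1 peak in place of 2 had an srh gene nearest. Among 41 recomputed values 29 stayed within their interval or spread. In the narrow window the pooled-list share fell to 10.9% (24.6% of all genes) and that of the other families in the IDR set to 0.0918%. In the strongest 15000 regions of the pooled list it was 14.1% (33.4% of all genes), and the pathway list had 0% among the 943 strongest peaks. Each of these alternatives admits fewer summits by its construction. The median signal was 3.72 to 4.24 with 1 replicate left out, in lists whose lowest signals were 2.63 and 3.25, beside 5.72 in the pooled list. Windows of 50 and 250 bp gave TTTGAA at 24.4 and 83.3% of srh summits, TGATAA at 8.97 and 37.2%, and the E2F consensus at 1.28% in the narrow one, as motifs become likelier with length. The restriction to windows with at least 90% unique words was chosen after seeing the data. The planned count with srh pseudogenes was not run, because no pseudogene in the annotation carries an srh symbol. No paired analysis was possible because there is 1 group. Read depth is unknown, so an srh promoter without a peak was not detectable as bound with these lists and is not shown to be unbound.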

Other observations

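A pair of srh genes with published reporters, named after their values were seen, are srh-220 and srh-234, both used as markers of the ADL chemosensory neurons. The promoter of srh-220 had no region in the pooled list, and its nearest IDR summit was 46356 bp away. The promoter of srh-234, whose expression is known to change with feeding, had a region of signal 8.55 with the summit at -455 bp, listed by replicate 2 (6.72) and not by replicate 3.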
